A study of Mus musculus with 4 samples.

Results

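The amino acid response is represented here by 10 genes: the kinase gene Eif2ak4, the transcription factor genes Atf4, Atf5, Ddit3, Cebpb and Cebpg, the pseudokinase gene Trib3, and the enzyme genes Asns, Phgdh and Psat1. They were taken by name, and every probe set of the array whose annotation gives one of these symbols alone was included. All 10 genes were found, with 21 of the 22626 probe sets tested. Another 2 probe sets list Phgdh together with a second symbol and were left out. A probe set was called low where it lay below the 40th percentile of the tested probe sets on each of the 4 arrays, and 6 of the 21 were low, among them both probe sets of Psat1.

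When amino acids run short, uncharged transfer RNAs activate the kinase GCN2, the product of Eif2ak4, which phosphorylates the translation factor eIF2. General translation then falls while the mRNAs of ATF4 and ATF5, which carry upstream open reading frames, are translated better, and ATF4 with C/EBP partners switches on genes of amino acid synthesis, uptake and stress signalling. The same step is reached from endoplasmic reticulum stress through another eIF2 kinase. Arrays measure mRNA, so ATF4 protein and eIF2 phosphorylation lie outside these data.

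Liver RNA came from mice starved for 24 h (2 arrays, starved 1 and starved 2) and from control mice (2 arrays, control 1 and control 2), all labelled wild type, 1 month old and of the C57/BL6 background. The labels give no transgene, deletion or agent in either group, but their description field calls the starved mice injected and the controls not injected, and what this refers to is not settled. The comparison asks which transcripts differ between starved and control mice. As labelled, injection falls on the same arrays as starvation, so their parts cannot be told apart. Signals are log2 values made with RMA, which summarises the probes of a set into 1 value, and each log2 change is given as starved less control, from the group means.

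Hepatocyte markers were high on every array, with a mean over 7 genes of 14.78 and 14.57 on the starved arrays and 14.68 and 14.59 on the control arrays. In a piece of tissue, fewer cells of a type and less RNA per cell cannot be told apart. Control 2 stood apart in acute phase genes, whose mean over 17 genes was 11.55 on starved 1, 11.64 on starved 2, 11.79 on control 1 and 13.19 on control 2. Orm2 and Lcn2, chosen after their values were seen, read 13.79 and 13.49 on control 2 and at most 9.34 and 9.35 on the others. None of the 17 passed the limma test, and 6 were lower in starved liver at an unadjusted p under 0.05, against 6.05% of all genes. The smallest p were those of Saa4, Steap4, Orm1 and Itih4, with log2 changes of -0.93 ± 0.12, -1.72 ± 0.46, -0.67 ± 0.19 and -0.42 ± 0.13 (SE). Over the 17 genes, both starved arrays lay below both controls in 12, against 20.9% of all genes. These 12 include the 4, which were chosen by p (limma, adjusted p = 0.0853 to 0.326). The median log2 change of the 17 genes was -0.67, or -0.23 without control 2 and -0.94 without control 1. The mean of 5 neutrophil markers was also highest on control 2, at 5.59, 5.91, 5.52 and 6.38 in the same order of arrays. Of these, S100a8 and S100a9 read 7.67 and 7.93 on control 2 and at most 6.55 and 6.74 on the others. Mpo, Elane and Ngp were low on all 4, and Elane was highest on starved 2. In the other marker lists (macrophage, endothelial, stellate, cholangiocyte, lymphocyte and erythroid cells) 0 genes passed the limma test, against 0.0646% of all genes. At an unadjusted p under 0.05, 1 of 6 macrophage, 1 of 7 endothelial, 1 of 5 cholangiocyte and 1 of 3 erythroid markers were higher. Among all genes 5.31% were higher. Lower were 2 of 7 stellate markers, against 6.05% of all genes, and 0 of 6 lymphocyte markers went either way. The endothelial one was Lyve1, 3.52-fold higher in starved liver (limma, adjusted p = 0.106), while the other 6 endothelial markers were lower by sign. RNA integrity was followed by the 3′ less the 5′ probe set of actin, which came to 2.06 and 1.85 on the starved arrays and 1.79 and 1.76 on the control arrays. For Gapdh it was 0.864 and 0.482 on the starved arrays and 0.646 and 0.538 on the control arrays, so the groups overlap and starved 2 was the lowest. The part of these differences in the results below was not tested. Values without an array do not test it, since leaving out an array removes everything particular to that mouse.

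Atf5 mRNA read 1.97-fold higher in starved than in control liver, and Trib3 mRNA 1.81-fold and 1.64-fold on its 2 probe sets. Atf4 itself, Cebpb, Cebpg and Phgdh had log2 changes within 0.25 of 0 on their brightest probe sets. For Asns the control mice were farther apart than the group means. None of these differences passed the test over the whole array. With the limma test at an adjusted p of 0.05, 0 of the 21 probe sets passed, against 0.0575% of all probe sets (0.0177% higher and 0.0398% lower in starved liver). At an unadjusted p under 0.05 there were 3 of 21, all higher in starved liver, against 11.5% of all (5.42% higher and 6.04% lower). The groups did not overlap in 8 of the 21, against 41.9% of all probe sets. Both starved arrays lay above both control arrays in 6 and below them in 2, against 21.3% and 20.6% of all. These 6 were the Atf5 probe set, both Trib3 probe sets and 3 low ones.

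With 1 probe set per gene, that of the highest mean signal, 0 of the 10 genes passed the limma test, against 0.0646% of all 12393 genes (0.0323% higher and 0.0323% lower). At an unadjusted p under 0.05 there was 1 of 10, Atf5, against 11.4% of all genes. The groups did not overlap in 4 of the 10 genes, against 42.2% of all, with Atf5 and Trib3 above the controls and Atf4 and Eif2ak4 below them. The median log2 change was 0.12 over the 10 genes and 0.0031 over all genes. It was -0.065 without starved 2 and 0.28 without starved 1. Changes of 7 of the 10 genes lay within 0.25 of 0 on the log2 scale. The share of all genes within that bound was not counted, so this number does not set the 10 apart.

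**Figure D1:**
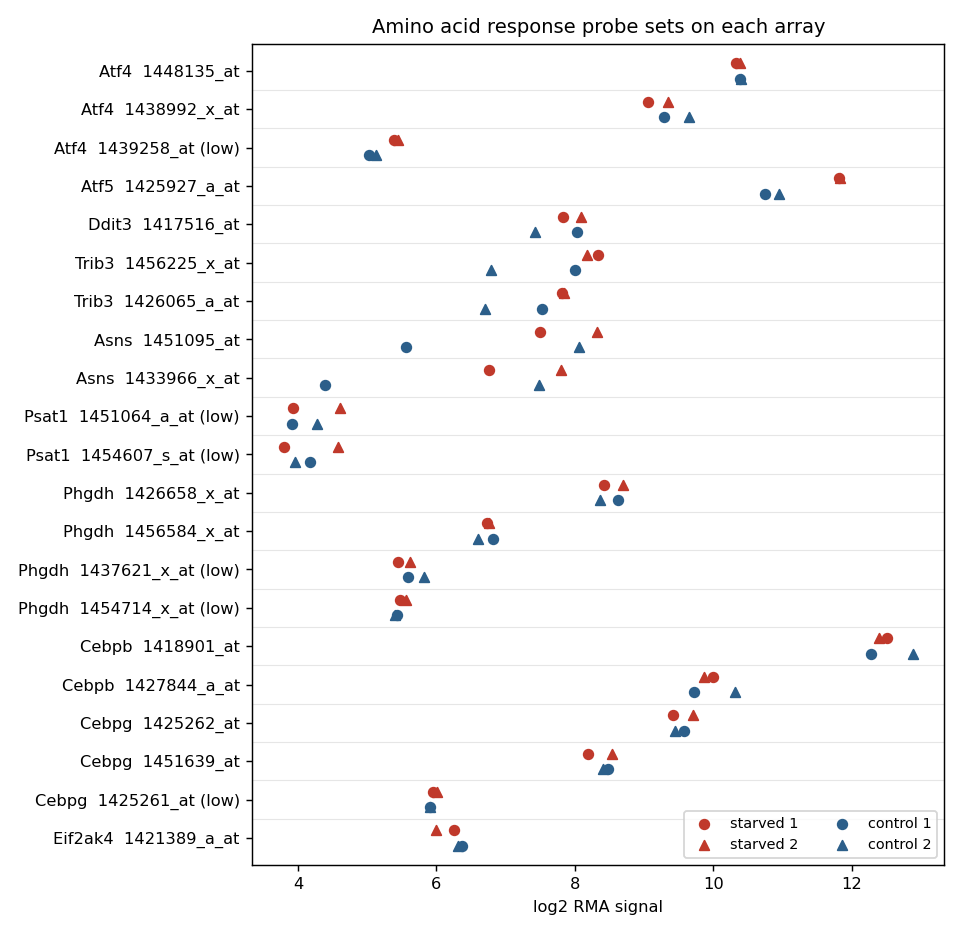
Log2 RMA signal (x axis) of each of the 21 probe sets (y axis) on the 2 starved arrays (red, upper) and the 2 control arrays (blue, lower); circles are replicate 1, triangles replicate 2, and low marks probe sets below the 40th percentile on all 4 arrays. The Atf5 group means are 0.98 apart, while the Asns control arrays are apart by 2.51 and 3.08; signals of different probe sets are not comparable with each other.

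The sensor gene Eif2ak4, on chromosome 2 (118388583 to 118475234 of GRCm38.p6, as are all positions here), has 1 probe set. It read 6.26 and 5.9999 in starved liver and 6.37 and 6.31 in control liver. The starved arrays were the lower pair, and starved 2 was also below the 40th percentile. Its log2 change of -0.22 ± 0.13 (SE) did not pass (limma, adjusted p = 0.614), and the 95% interval ran from -0.55 to 0.12.

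Atf4, the central factor of the response, lies on chromosome 15 (80255184 to 80257545). Its brightest probe set, 1448135_at, read 10.33 and 10.38 in starved liver and 10.39 and 10.40 in control liver. All 4 values lie within a narrow band, and although the groups do not overlap, starved 2 and control 1 are almost equal. The change was -0.037 ± 0.11 (limma, adjusted p = 0.951), with an interval of -0.31 to 0.24, which in linear terms is 0.805 to 1.18-fold. A second probe set, 1438992_x_at, had 9.06 and 9.35 in starved and 9.28 and 9.65 in control liver, which overlap. The third, 1439258_at, was low, with 5.38 and 5.45 in starved and 5.02 and 5.12 in control liver. Its change of 0.34 ± 0.12 had an unadjusted p of 0.0261 and did not pass over all probe sets (limma, adjusted p = 0.356). The 3 probe sets of Atf4 thus disagreed in sign, and the mean over them had a log2 change of 0.014.

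Atf5, a relative of ATF4 and itself a target of the pathway, had the smallest p of the 21 probe sets. It lies on chromosome 7 (44812256 to 44816658). Its single probe set read 11.81 and 11.83 in starved liver, against 10.74 and 10.95 in control liver. The starved arrays nearly coincide, and both stand well above the control pair. The means were 11.82 ± 0.01 in starved and 10.85 ± 0.15 in control liver (SD, n = 2 each), a 1.97-fold difference with an interval of 1.58 to 2.45-fold. The log2 change was 0.98 ± 0.13 (SE), with an unadjusted p of 2.94e-04 that did not pass over all probe sets (limma, adjusted p = 0.0854). It lay between 0.87 and 1.08 with any 1 array left out, and over all alternatives the adjusted p ran from 0.0537 to 0.371 (limma).

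The promoter window of Atf5 is shown because this gene had the clearest separation of the groups. It runs from 250 bases before the start site to 50 bases after it, chr7:44816609-44816908 on the minus strand, from RefSeq on GRCm38.p6. Capitals in this and the later windows mark matches to the C/EBP-ATF response element searched as TGATGNAAN on both strands, where N is any base, and this window holds none.
Atf5: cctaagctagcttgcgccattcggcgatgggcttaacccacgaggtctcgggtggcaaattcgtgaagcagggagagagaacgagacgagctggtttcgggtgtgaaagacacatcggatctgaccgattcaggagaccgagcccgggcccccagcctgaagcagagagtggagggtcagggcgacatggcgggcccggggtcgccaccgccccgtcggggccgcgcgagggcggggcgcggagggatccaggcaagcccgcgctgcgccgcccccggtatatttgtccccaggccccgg

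Over the 4 arrays, Atf5 was compared with 8582 other genes that were not low, by the root mean square difference of values centred on each gene's mean. The nearest were Abcb4, the phospholipid exporter of bile (0.0719 log2 units), Gpt2, the mitochondrial alanine aminotransferase (0.0813), and Desi2 (0.0902). Gpt2 is also on the list of further ATF4 targets. The 3 genes were picked for their likeness to Atf5 on these same arrays. That their starved arrays lay above their control arrays follows from this choice.

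Ddit3, on chromosome 10 (127290793 to 127296291), encodes CHOP, a C/EBP-type factor of the stress response. Its probe set read 7.83 and 8.08 in starved liver and 8.03 and 7.42 in control liver. The groups overlap, since control 1 was nearly as high as starved 2 and control 2 was the lowest of the 4. The change was 0.23 ± 0.22 (limma, adjusted p = 0.778), or -0.078 without control 2 and 0.54 without control 1.

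Cebpb, on chromosome 2 (167688915 to 167690432), encodes a factor that pairs with ATF4 and also drives acute phase genes. Its brightest probe set read 12.51 and 12.39 in starved liver and 12.28 and 12.88 in control liver. Both starved values fall between the control arrays, of which control 2 was the higher, and the other Cebpb probe set had the same order, with 9.99 and 9.86 against 9.72 and 10.31. The changes were -0.13 ± 0.21 and -0.092 ± 0.21 (limma, adjusted p = 0.889 and 0.932). Without control 2, the array with high acute phase genes, they were 0.17 and 0.20, and without control 1 they were -0.43 and -0.39.

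Cebpg, on chromosome 7 (35046422 to 35056566), encodes a short C/EBP protein that forms dimers with ATF4. Its brightest probe set read 9.42 and 9.70 in starved liver and 9.57 and 9.45 in control liver, a change of 0.048 ± 0.14 (limma, adjusted p = 0.950). The next had 8.19 and 8.54 in starved and 8.48 and 8.40 in control liver. In both the control arrays fell between the starved ones. The remaining probe set was low and had a change of 0.068. For the brightest the 95% interval was -0.30 to 0.40.

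Trib3, on chromosome 2 (152337425 to 152344060), encodes a pseudokinase that ATF4 and CHOP induce and that restrains both AKT and ATF4. Probe set 1456225_x_at read 8.33 and 8.17 in starved liver and 8.003 and 6.79 in control liver. Probe set 1426065_a_at read 7.82 and 7.85 in starved liver and 7.53 and 6.71 in control liver. In both, the starved arrays are above both controls, control 1 lies close below them and control 2 lies far below. The changes were 0.86 ± 0.38 and 0.72 ± 0.26 (SE), and neither passed (limma, adjusted p = 0.462 and 0.398). They were 0.25 and 0.31 without control 2 and were 1.46 and 1.13 without control 1 (limma, adjusted p = 0.0574 and 0.0800). The control arrays differed by 2.33-fold in the first probe set, a gap reached by 0.583% of all probe sets.

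Asns, on chromosome 6 (7675165 to 7693209), encodes asparagine synthetase, which makes asparagine from aspartate and glutamine and is the textbook target of the response. Probe set 1451095_at read 7.49 and 8.32 in starved liver and 5.55 and 8.06 in control liver. Probe set 1433966_x_at read 6.76 and 7.79 in starved liver and 4.39 and 7.47 in control liver. In both, control 1 was far below the other 3 arrays and below the 40th percentile, while control 2 lay between the starved arrays. The changes, 1.10 ± 0.78 and 1.34 ± 0.96 (SE), were the largest among the 10 genes and did not pass (limma, adjusted p = 0.669 and 0.670). For the first the 95% interval ran from -0.83 to 3.03. Without control 1 the changes were -0.16 and -0.20, and without control 2 they were 2.35 and 2.88 (limma, adjusted p = 0.170 and 0.168). The control mice differed by 5.69-fold and 8.47-fold, a gap reached by 0.128% and 0.0796% of all probe sets. The starved mice also differed, by 0.83 and 1.04 on the log2 scale, a gap reached by 1.09% and 0.592% of all probe sets. Asns is abundant in the exocrine pancreas, and a list of 6 acinar markers averaged 6.20 and 6.36 on the starved arrays and 6.47 and 6.47 on the control arrays, with Cpa1, Cpb1 and Cela2a low on all 4. Of the 6, Cela1 read 9.12 and 9.46 on the starved arrays and 10.62 and 10.58 on the control arrays (limma, adjusted p = 0.0672). Cpb1 and Prss2 had changes of the other sign, 0.38 and 0.092. Cela2a read 5.27 and 5.21 on the starved arrays, 5.04 on control 1 and 5.84 on control 2. In each of the other acinar markers control 1 was the higher of the control arrays. Prss2 read 7.34 on control 1 and 7.06 on control 2, and Ctrb1 read 6.23 and 6.11. Whether acinar tissue had a part in the Asns values was not tested.

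Asns and Trib3 are the members whose promoter windows hold the C/EBP-ATF response element, and both are shown for that reason. The Asns window is chr6:7693160-7693459 and the Trib3 window chr2:152344011-152344310, both on the minus strand, from RefSeq on GRCm38.p6, 5′ to 3′ along the gene. In Asns the match is on the strand of the gene, from -23 to -15, where the first transcribed base is 1. In Trib3 it is on the opposite strand, from 14 to 22, so that the capitals read as the reverse complement.
Asns: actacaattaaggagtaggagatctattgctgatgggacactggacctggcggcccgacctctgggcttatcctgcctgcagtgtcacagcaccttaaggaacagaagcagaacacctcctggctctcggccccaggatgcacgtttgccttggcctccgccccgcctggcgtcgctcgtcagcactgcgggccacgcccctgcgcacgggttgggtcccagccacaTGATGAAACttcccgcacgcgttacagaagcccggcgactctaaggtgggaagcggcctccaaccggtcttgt
Trib3: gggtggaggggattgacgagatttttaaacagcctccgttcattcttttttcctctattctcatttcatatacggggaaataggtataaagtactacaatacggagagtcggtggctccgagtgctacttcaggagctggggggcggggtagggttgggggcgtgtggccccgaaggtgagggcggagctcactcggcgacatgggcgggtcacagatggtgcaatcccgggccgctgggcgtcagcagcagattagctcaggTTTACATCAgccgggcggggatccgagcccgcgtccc
The element was in 2 of the 13 windows of the 10 genes and in 3.95% of all 32851 windows. It was in a window of 9 of 22 further ATF4 target genes with a window, and in that of 4.50% of all genes. These genes were listed as ATF4 targets, so this share is no test. They are not the same 22 as those measured below, since Pycr1 has the element and was not measured. The cyclic AMP element TGACGTCA was in 0 of the 13 windows and in 1.79% of all. The order of the arrays differed between Asns and Trib3, since control 1 was the lowest array for Asns and control 2 for Trib3.

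**Figure D2:**
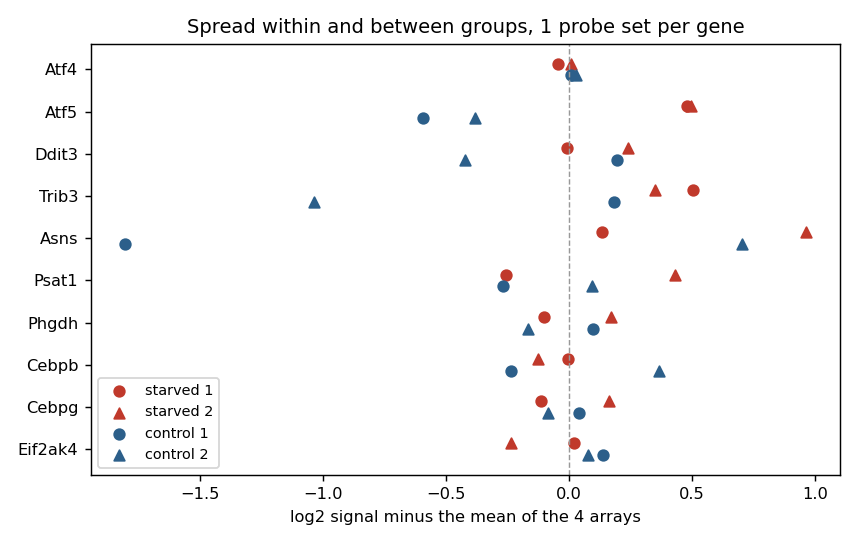
Log2 signal minus the mean of the 4 arrays (x axis) for the probe set with the highest mean of each gene (y axis), with starved arrays in red above control arrays in blue. In Atf5 the starved arrays are 0.016 apart and the control arrays 0.21 apart; in Asns and Trib3 a single control array, control 1 and control 2, lies far to the left.

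Phgdh, on chromosome 3 (98313171 to 98339969), encodes the first enzyme of serine synthesis from a glycolytic intermediate. Its 4 probe sets are all of the _x_at type, which may hybridise to related transcripts, and 2 of them were low. The brightest read 8.43 and 8.70 in starved liver and 8.62 and 8.36 in control liver, so the groups overlap. The change was 0.070 ± 0.16 (limma, adjusted p = 0.930) with an interval of -0.32 to 0.46, and the other 3 changes were 0.043, -0.17 and 0.11.

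Psat1, on chromosome 19 (15905123 to 15925059), encodes the aminotransferase of the next step. Both probe sets were low, with 3.93 and 4.61 in starved and 3.91 and 4.28 in control liver for the brighter one. The other read 3.80 and 4.58 in starved and 4.17 and 3.96 in control liver. At such signals the levels are uncertain, and the changes of 0.17 ± 0.25 and 0.12 ± 0.26 did not pass (limma, adjusted p = 0.868 and 0.925). Psph, the phosphatase that completes the path, read 7.08 and 7.30 in starved and 7.35 and 7.67 in control liver, a change of -0.32 ± 0.16 (limma, adjusted p = 0.511).

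**Figure D3:**
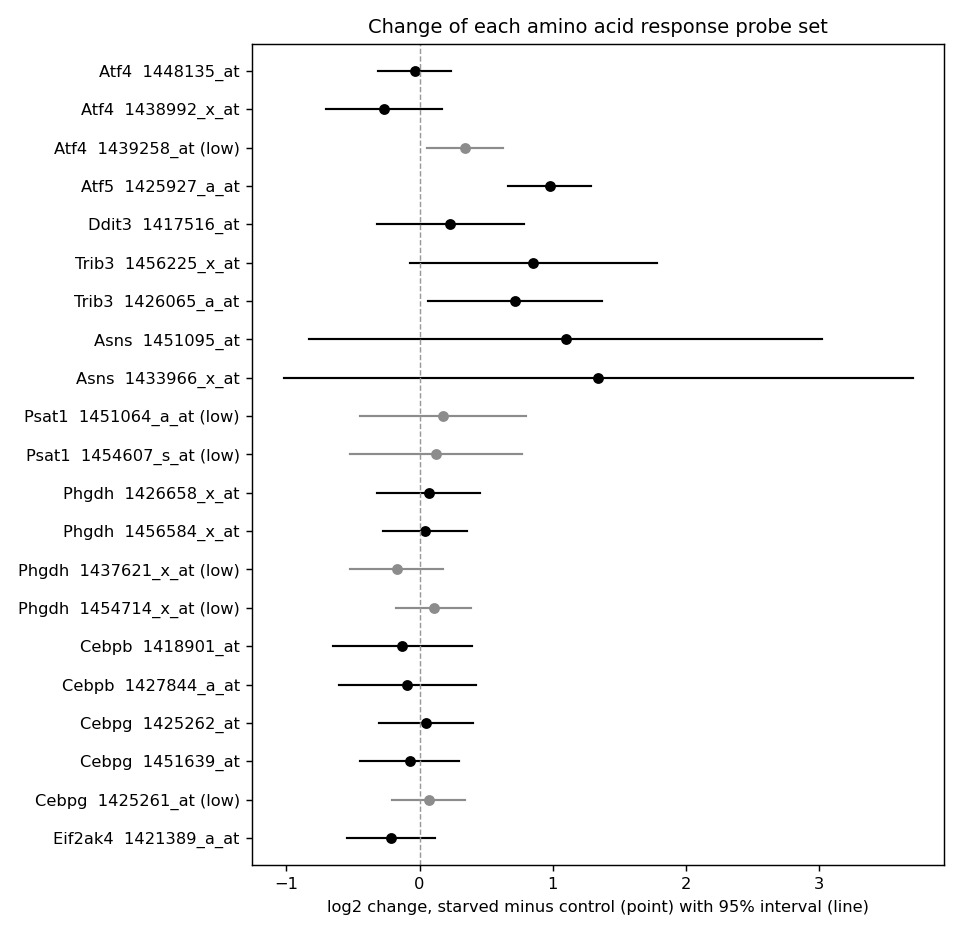
Log2 change, starved minus control (points, x axis), with its 95% interval from limma (lines) for the 21 probe sets (y axis); grey marks low probe sets and the dashed line is 0. The Atf5 interval runs from 0.66 to 1.29, and the Asns intervals, -0.83 to 3.03 and -1.02 to 3.71, are the widest.

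Further targets of ATF4 and the amino acid response lay on both sides of 0, with 14 higher and 8 lower by sign. Of 25 genes named, 22 were measured, 0 passed the limma test, and both starved arrays lay above the controls in 8 and below them in 5. Among all genes these shares were 21.4% and 20.9%. Of the 22, 3 were higher at an unadjusted p under 0.05 and 0 lower, against 5.31% higher and 6.05% lower among all genes. Their median log2 change was 0.11, and 0.19 without starved 2. The gene for alanine aminotransferase 2, Gpt2, read 13.31 and 13.25 in starved liver and 12.38 and 12.43 in control liver. Its change was 0.88 ± 0.11 (limma, adjusted p = 0.0853), and its 3 probe sets gave 0.88 to 0.99. With trend and robust settings in eBayes, Gpt2 passed the test (adjusted p = 0.0418). Xpot, a transfer RNA exporter, read 10.38 and 10.18 in starved and 9.62 and 9.60 in control liver (limma, adjusted p = 0.153).

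Fgf21, a fasting hormone of the liver that both PPAR-alpha and ATF4 can induce, read 6.31 and 7.98 in starved liver and 5.83 and 5.94 in control liver. Both control values were below the 40th percentile of their arrays. Starved 2 was far above the other 3 arrays, and the change of 1.26 ± 0.50 did not pass (limma, adjusted p = 0.427). It was 0.43 without starved 2 and 2.10 without starved 1. Got1, the cytosolic aspartate aminotransferase, had 12.82 and 12.09 in starved and 11.38 and 12.05 in control liver (limma, adjusted p = 0.446), a change of 0.74 that was 0.38 without starved 1. Ddit4, an inhibitor of mTORC1 chosen after its values were seen, read 10.70 and 7.96 in starved liver and 8.90 and 9.78 in control liver. The starved arrays of Ddit4 were thus the highest and the lowest of the 4.

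Aminoacyl-tRNA synthetases, many of them ATF4 targets in cultured cells, had 12 genes on the lower side and 6 on the higher side by sign. Of 18 cytosolic synthetase genes measured out of 20 named, both starved arrays lay below the controls in 9 and above them in 1, against 20.9% and 21.4% of all genes, and 0 passed the limma test. At an unadjusted p under 0.05, 3 were lower and 0 higher, against 6.05% and 5.31% of all genes. The median change was -0.11, -0.17 without starved 1 and -0.079 without starved 2. The alanine enzyme gene Aars read 10.59 and 10.47 in starved liver and 10.90 and 11.05 in control liver, with a change of -0.45 ± 0.12 (limma, adjusted p = 0.288). Tars and Nars, for threonine and asparagine, had changes of -0.56 ± 0.18 and -0.35 ± 0.12 (limma, adjusted p = 0.346 and 0.354), and Yars, for tyrosine, -0.28 ± 0.12. These 4 were below both controls on each starved array.

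Amino acid transporters of the response had a median change of -0.092 over 9 genes, 3 of which were low, and 0 passed the limma test. Among all genes 0.0646% passed. At an unadjusted p under 0.05, 1 was higher and 1 lower, against 5.31% and 6.05% of all genes. Slc1a5, a glutamine carrier, read 5.95 and 6.09 in starved and 5.64 and 5.72 in control liver. Only its starved 2 value was above the 40th percentile of its array. Slc1a4, a carrier of small neutral amino acids, read 6.01 and 6.18 in starved and 6.34 and 7.03 in control liver, and its 3 probe sets gave changes of -0.59 to -0.046. The glycine carrier gene Slc6a9 had a change of 0.29 ± 0.12, and Slc38a2, the carrier gene used to follow amino acid supply in cells, of -0.39 ± 0.28. Slc38a2 read 11.56 and 10.82 in starved and 11.36 and 11.80 in control liver, and its change was -0.76 without starved 1 and -0.019 without starved 2. For Slc1a4 it was -0.94 without control 1 and -0.25 without control 2. None of these 4 passed (limma, adjusted p = 0.374 to 0.668).

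Genes of eIF2, its kinases and their regulators had a median change of -0.013 over 12 measured genes (0.014 without starved 2), with 0 past the limma test, against 0.0646% of all genes. Impact, which encodes an inhibitor of GCN2, read 8.36 and 8.61 in starved and 8.16 and 7.84 in control liver. Its change of 0.48 ± 0.16 was the 1 of 12 with an unadjusted p under 0.05, against 11.4% of all genes, and did not pass (limma, adjusted p = 0.355). The kinase genes Eif2ak2 and Eif2ak1 had changes of -0.23 ± 0.12 and 0.23 ± 0.20, and the 3 probe sets of Eif2ak1 ranged from -0.13 to 0.23. Ppp1r15b, a subunit of the eIF2 phosphatase, had 0.16 ± 0.14.

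Partner factors of the C/EBP and AP-1 type had a median change of 0.034 over 13 genes (-0.082 without starved 2, -0.029 without control 2), and 0 passed the limma test, against 0.0646% of all genes. Only Fos of the 13 had an unadjusted p under 0.05, against 11.4% of all genes. Fos, an immediate early gene, read 6.13 and 6.37 in starved and 6.86 and 6.89 in control liver, and its change of -0.62 ± 0.13 did not pass (limma, adjusted p = 0.189). Mafg and Junb had changes of 0.41 ± 0.17 and 0.36 ± 0.18, and Atf7, which was low and whose 2 probe sets differed in sign, of -0.29 ± 0.15. In the neighbouring serine and glycine enzymes the median over 9 genes was -0.063 (0.038 without control 1, -0.16 without control 2) and 0 passed the limma test. At an unadjusted p under 0.05, 1 was higher and 1 lower, against 5.31% and 6.05% of all genes. Shmt1, the cytosolic serine hydroxymethyltransferase, had 0.44 ± 0.12 (0.13 to 0.44 over its 4 probe sets), the glycine cleavage gene Gldc 0.65 ± 0.27 and Cbs, which joins serine to homocysteine, -0.42 ± 0.15 (limma, adjusted p = 0.290, 0.442 and 0.385). Gldc read 11.66 and 10.84 in starved and 10.50 and 10.69 in control liver, and its change was 0.24 without starved 1 and 1.06 without starved 2.

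The other branches of the unfolded protein response had a median change of -0.16 over 12 genes (-0.096 without starved 1), with both starved arrays below the controls in 5 and above them in 0, and 0 past the limma test. Among all genes the shares were 20.9% below, 21.4% above and 0.0646% past the test. Of the 12, 2 were lower at an unadjusted p under 0.05, against 6.05% of all genes. Sdf2l1, an endoplasmic reticulum chaperone component, read 10.31 and 10.37 in starved and 10.77 and 10.79 in control liver (limma, adjusted p = 0.249). Edem1, of glycoprotein degradation, had a change of -0.44 ± 0.15, the sensor gene Ern1 -0.27 ± 0.12 and the chaperone gene Calr -0.19 ± 0.13. For Ern1 the 3 probe sets ranged from -0.27 to 0.22.

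Genes of the fasting programme serve as a comparison on the same arrays. Of 9 measured, 2 passed the limma test, against 0.0646% of all genes, and both starved arrays lay above the controls in 7, against 21.4%. The list was chosen with earlier results of these data known, so its shares beside those of all genes are no test. By sign 8 were higher and 1 lower. The changes ran from -0.091 to 7.36, with a median of 0.93, or 0.37 without starved 1. Ehhadh, a peroxisomal oxidation enzyme, was 5.41-fold higher in starved liver (limma, adjusted p = 0.0379). Cyp4a14, a fatty acid hydroxylase, read 13.97 and 14.01 in starved liver and 7.57 and 5.69 in control liver (limma, adjusted p = 0.0379). Neither call held with every array left out: without starved 1 the adjusted p was 0.133 for Ehhadh and 0.180 for Cyp4a14, and without starved 2 it was 0.0597 and 0.109 (limma). With the replicate block it was 0.146 for both. Cpt1a, the gate of mitochondrial fatty acid oxidation, and Pdk4, which restrains glucose oxidation, had changes of 0.87 ± 0.13 and 0.93 ± 0.18 and did not pass (limma, adjusted p = 0.103 and 0.167). Pdk4 was above the 40th percentile on starved 1 only. For Cyp4a14, as for Trib3 and Ddit3, control 1 was the higher of the control arrays.

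**Figure D4:**
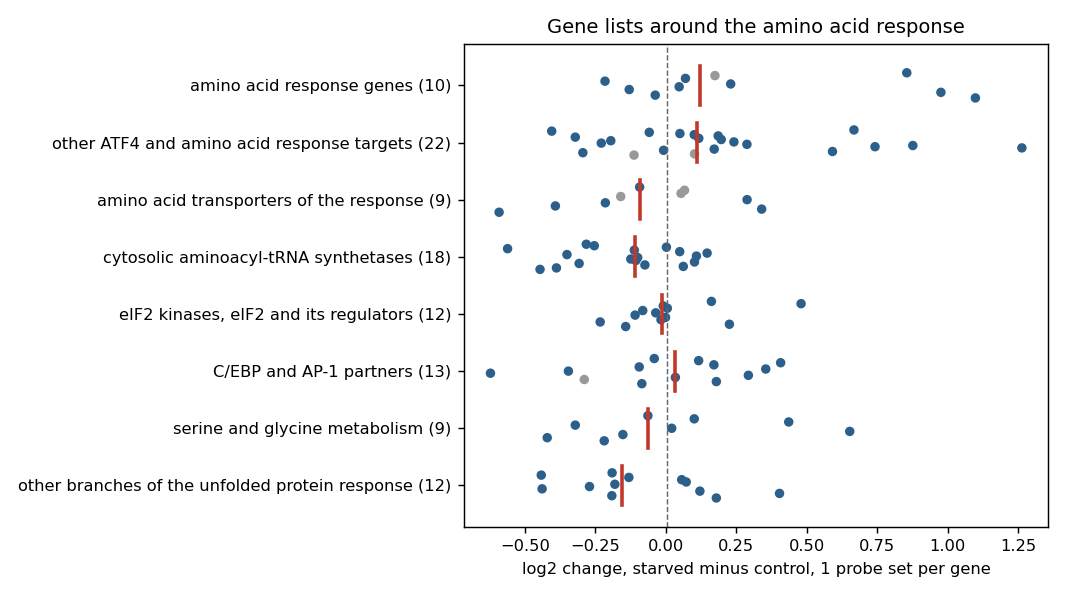
Log2 change, starved minus control (x axis), of each gene (points, grey where low) in the lists named on the y axis with the number of genes measured; red bars are list medians and the dashed line is the median of all genes. The synthetase and unfolded protein response medians, -0.11 and -0.16, lie left of the dashed line, and the amino acid response median, 0.12, lies right of it with Asns, Atf5 and Trib3 as the points beyond 0.5.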

How the data were processed

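Liver RNA of 4 mice was hybridised to Affymetrix arrays with 22690 probe sets. The authors deposited log2 values, 1 per probe set and array, for which the submitters' processing notes name affy and RMA. Versions, and whether all arrays entered 1 normalization, are not stated there. Since RMA equalises the arrays' distributions, a global change of mRNA content cannot be seen.

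The 64 Affymetrix controls were left out. Of the other probe sets 20380 had 1 symbol in the platform annotation, 691 several and 1555 none. Current symbols came from a RefSeq table of GRCm38.p6, joined by Entrez identifier (20351 matched). Groups follow the titles. A linear model of starved against control was fitted to each probe set (R 4.3.3, limma 3.58.1, lmFit then eBayes, no covariates). Its 2-sided p-values were adjusted by Benjamini-Hochberg over 22626 probe sets, and the procedure was tested on simulated data. There it recovered 50.8% of log2 changes of 1, so a change of that size can fail to pass. The labels call the arrays biological replicates, and 2 per group is what limits precision.

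Members and lists were chosen with earlier results of these data known. The lists that surround the 10 genes are described in the report with 1 probe set per gene. Named are all probe sets of the 10 genes, up to 4 genes of each further list with the smallest p, any past the test, and the 3 genes most like Atf5. Alternatives covered scaling, a low-signal filter, the probe set rule, eBayes settings, a replicate block and each array left out.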

Additional observations from a re-analysis of the deposited data

How the results depend on the processing

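No amino acid response probe set passed the limma test under any of the alternatives, which were 2 rescalings, a low-signal filter, 2 gene-level units, removal of _x_at and _s_at probe sets, trend with robust eBayes, a replicate block and each array left out. Over all probe sets the count past the test was 13. It was 8 with 1 probe set per gene, 23 without _x_at and _s_at probe sets, 59 with trend and robust settings, and 0 with the replicate number as a block, where 2534 had an unadjusted p under 0.05. Leaving out starved 1, starved 2, control 1 or control 2 gave 2, 18, 57 and 17. The replicate numbers share only a number (r = 0.04 between same-numbered deviations over probe sets). The median change of the 10 genes, 0.12, ran from -0.065 to 0.28 with 1 array left out. Of 216 alternative values of the 21 probe sets, 201 kept their direction and side of the threshold and 15 changed sign, 14 of them with an array left out. The exception was Atf4, at 0.014 for the mean of its probe sets. Ranges with 1 array left out were -0.16 to 2.35 and -0.20 to 2.88 for Asns, -0.078 to 0.54 for Ddit3, -0.43 to 0.17 and -0.39 to 0.20 for Cebpb, -0.092 to 0.19 and -0.25 to 0.10 for Cebpg, -0.17 to 0.52 and -0.27 to 0.52 for Psat1, and -0.066 to 0.21 and -0.068 to 0.15 for Phgdh. Of the genes named from other lists, chosen for these alternatives after the data were seen, 7 of 426 values lost a call, all of Ehhadh or Cyp4a14. These were both genes without starved 1, without starved 2 and with the block (limma, adjusted p = 0.0597 to 0.180), and Cyp4a14 with trend and robust settings (0.101). With the trend and robust settings Gpt2 and Saa4 gained one (0.0418 and 0.0410). Eif2ak1 ran from -0.039 to 0.49 and Ern1 was 0.033 as the mean of its probe sets. With 2 arrays per group and no detection calls, precision is limited, most of all at low signal. The cause of these shifts was not tested.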

Other observations

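Ranked by the gap between the control arrays, Asns was 16th of 12393 genes and Trib3 83rd, while Atf5 was 4323rd and Atf4 11537th. Genes with larger gaps, chosen after their values were seen, included some in which control 1 was the lowest array, as it was for Asns. The metallothionein genes Mt1 and Mt2 read 13.85 and 12.97 on starved 1, 13.61 and 12.82 on starved 2, 10.29 and 9.09 on control 1, and 13.76 and 13.54 on control 2. Tff3, a trefoil factor, read 12.17 and 11.85 on the starved arrays and 7.86 and 12.02 on the control arrays. Moxd1 read 11.94 and 12.07 on the starved arrays and 8.90 and 12.84 on the control arrays. In the starved pair Ddit4 had the 4th largest gap of all genes, at -2.74 (starved 2 minus starved 1), and Asns the 149th.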
